A study of Mus musculus with 4 samples.

Results

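Radial glia, the apical progenitor cells that line the ventricle of the embryonic forebrain, were described here through 37 genes, listed by symbol, of the 48795 in the deposited table. The list holds transcription regulators of apical progenitors, genes of their filaments and surface, Notch pathway genes, Hes, Hey and Id genes, and factors that pattern the cortex. RNA from telencephalon, the embryonic forebrain, was sequenced at embryonic day 14 in C57BL/6 mice. There were 2 Ctcf-null libraries, from embryos with a loxP-flanked (floxed) Ctcf gene and a Cre recombinase driven by Nestin sequences, and 2 control libraries, from embryos labelled with the floxed gene only. Each Ctcf-null library was paired with the control library of the same number, and the labels do not say what the libraries of a pair share. The labels name no Cre in the controls, so the presence of Cre and the loss of Ctcf cannot be told apart, and they do not say whether 1 or both Ctcf alleles were floxed, or whether the libraries came from separate embryos. Nestin-driven Cre acts in neural progenitors and what descends from them, so vessels, blood and microglia of the same tissue keep the gene.

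Radial glia divide at the ventricular surface and give rise to neurons directly or through intermediate progenitors. Notch receptors, activated by Delta and Jagged ligands on neighbouring cells, release an intracellular fragment that joins the DNA-binding protein RBPJ and switches on Hes and Hey repressors, which hold proneural genes down and keep the cell a progenitor. Across the ventricular zone, graded and regional transcription factors such as Pax6, Emx2, Lhx2 and Nr2f1 set dorsal, medial and areal identity. CTCF, a DNA-binding protein with zinc fingers, anchors chromatin loops together with cohesin.

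The libraries held 25519331 to 43812558 reads. Ctcf was at 38.89 and 61.96 normalized counts in Ctcf-null libraries 1 and 2, against 436.72 and 1133.21 in controls 1 and 2, which is 14.1-fold lower in the fit. Levels differed far more between the pairs than between genotypes, with a median absolute log2 difference of 0.83 between pairs of 1 genotype and 0.23 between genotypes of 1 pair over all genes tested. Genotypes were compared within pairs, following the pairing given by the submitters. Fold changes are of Ctcf-null over control on the log2(normalized count + 1) scale, from limma with the pair as a block, and "rose" and "fell" are used only of genes with a Benjamini-Hochberg adjusted p under 0.05 over all 22158 genes tested.

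Of the 36 members tested, 10 fell and 0 rose in Ctcf-null telencephalon, while 3.67% of all genes tested rose and 10.1% fell (13.7% in either direction). The 10 were Lhx2, Emx1, Sox3, Hes5, Hey1, Id4, Ednrb, Notch1, Nr2f1 and Hes6, with falls of 1.21- to 1.57-fold. The median log2 fold change of the members was -0.20, against -0.07 for all genes tested. In both pairs 22 of the 36 members were lower, which is 61.1%, against 42.9% of all genes, and 4 were higher in both, against 24.5% of all genes (67.4% had 1 sign in both). The members' values in the 2 genotypes overlapped in every case when pairs were ignored, while 14.1% of all genes had values that did not overlap (6.45% higher and 7.64% lower). Without the block of pairs 0 members and 0 genes passed in limma or edgeR, 0 members had an unadjusted limma p under 0.05, and 170 genes did in limma and 174 in edgeR. In bulk tissue, fewer cells of a type and less RNA per cell cannot be told apart.

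**Figure D1:**
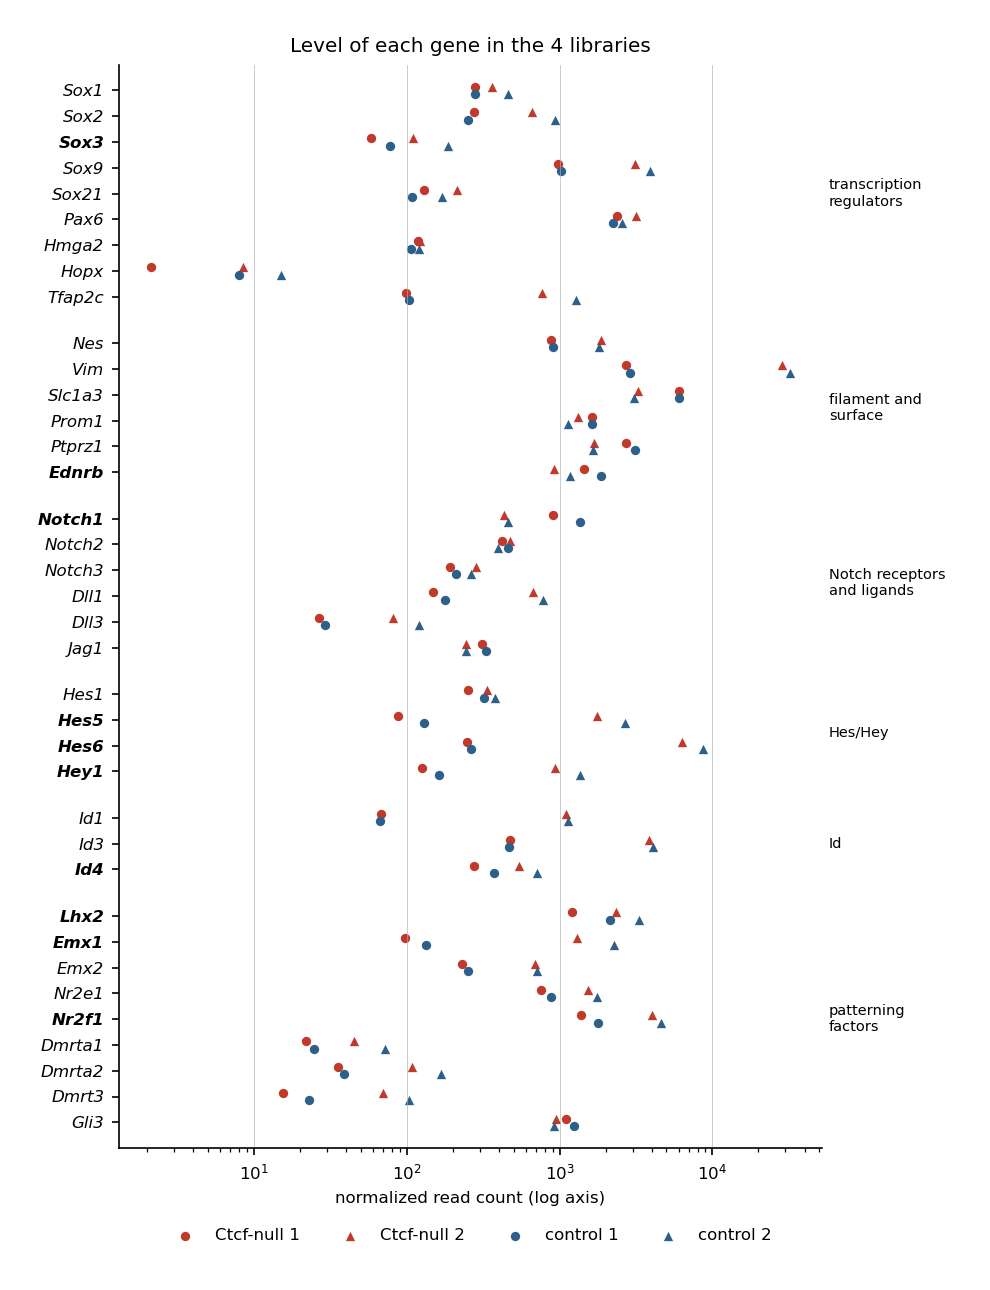
Normalized read count (log axis) of each of the 37 members in Ctcf-null libraries (red) and control libraries (blue), with circles for pair 1 and triangles for pair 2. Bold symbols mark the 10 members that fell, and many genes, such as Hes6 with 247 and 6337 in the Ctcf-null libraries, lie much further apart between pairs than between genotypes.

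How many members fell depended on the scaling and the test. With TMM factors 6 fell and 1 rose, where 6.14% of all genes fell and 4.37% rose (10.5% in all). With upper-quartile factors 4 fell and 1 rose, where 4.14% fell and 5.65% rose (9.78% in all). The upper-quartile factors moved the median of all genes up by 0.11 on the log2 scale, and the share of rises among called genes was 57.7% with them, against 26.7% with the authors' factors and 41.6% with TMM factors. In edgeR's quasi-likelihood test on recovered whole reads, with the block, 8 fell and 1 rose, where 7.13% of all genes fell and 4.8% rose (11.9% in all). In DESeq2 with the block 3 fell and 0 rose, where 2.45% fell and 1.3% rose (3.75% in all). Lhx2, Emx1 and Hes5 fell in all 9 alternatives that kept the block, Hey1 in 8, and Ednrb and Id4 in 7.

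Cortical patterning factors held 3 of the 10 genes that fell, among 9 tested (33.3%, against 10.1% of all genes). Their median log2 fold change was -0.39, and 8 of 9 were lower in both pairs (88.9%, against 42.9% of all genes). Lhx2, a LIM homeodomain factor that specifies cortex over its medial border, was at 1204 and 2345 normalized counts in Ctcf-null libraries 1 and 2, against 2124 and 3290 in controls 1 and 2. It was lower in the Ctcf-null library of each pair, although Ctcf-null 2 lay above control 1, and its log2 fold change of -0.65 (SE 0.08, limma adjusted p = 1.4e-05) was the furthest from 0 among the 36 members tested. Emx1, a homeobox gene of the dorsal telencephalon, was at 96.87 and 1293 in Ctcf-null libraries, against 134.31 and 2269 in controls. Its log2 fold change was -0.47 in pair 1 and -0.81 in pair 2, and -0.64 in the fit (SE 0.11, limma adjusted p = 5.5e-04). Nr2f1, an orphan nuclear receptor that sets areal identity, had 1387 and 4026 normalized counts in Ctcf-null libraries, against 1791 and 4574 in controls, a log2 fold change of -0.28 (SE 0.07, limma adjusted p = 0.016). Its call was lost in 5 of the 9 alternatives with the block, and in edgeR its adjusted p was 0.051. An antisense gene, A830082K12Rik, shares 2.42% of Nr2f1's exon bases and had 378 and 676 normalized counts in Ctcf-null libraries, against 500 and 777 in controls.

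Emx2, the paralog of Emx1, did not pass. It was at 229 and 686 in Ctcf-null libraries, against 252 and 715 in controls, a log2 fold change of -0.10 with a 95% interval of -0.32 to 0.13, and its sign turned with upper-quartile factors. Both paralogs were lower in each pair, and whether their fold changes differ was not tested. Emx2 shares 8.79% of its exon bases with the antisense Emx2os, which had 79.2 and 507 normalized counts in Ctcf-null libraries, against 76.5 and 377 in controls, and no strand is given for the counts. The DM domain genes Dmrta1, Dmrta2 and Dmrt3, which act in medial cortical patterning, were the lowest of the patterning factors, between 15.6 and 168 normalized counts in all libraries. Dmrt3 was at 15.56 and 70.46 in Ctcf-null libraries, against 23.13 and 103.82 in controls, with log2 fold changes of -0.54 and -0.55 in the pairs. Its fit value of -0.55 had an SE of 0.26 and did not pass (limma adjusted p = 0.18), nor did Dmrta1 at -0.43 (SE 0.28) or Dmrta2 at -0.39 (SE 0.21). These 3 genes were lower in both pairs. The 95% interval before adjustment was -1.09 to -0.0059 for Dmrt3, and those of Dmrta1 and Dmrta2 included 0. Nr2e1, a nuclear receptor that keeps progenitors cycling, was at 757 and 1531 in Ctcf-null libraries, against 873 and 1752 in controls (log2 fold change -0.20, limma adjusted p = 0.11). Gli3, a zinc finger mediator of Sonic hedgehog signalling needed for dorsal telencephalon, was at 1095 and 952 in Ctcf-null libraries, against 1249 and 922 in controls, with opposite signs in the pairs.

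**Figure D2:**
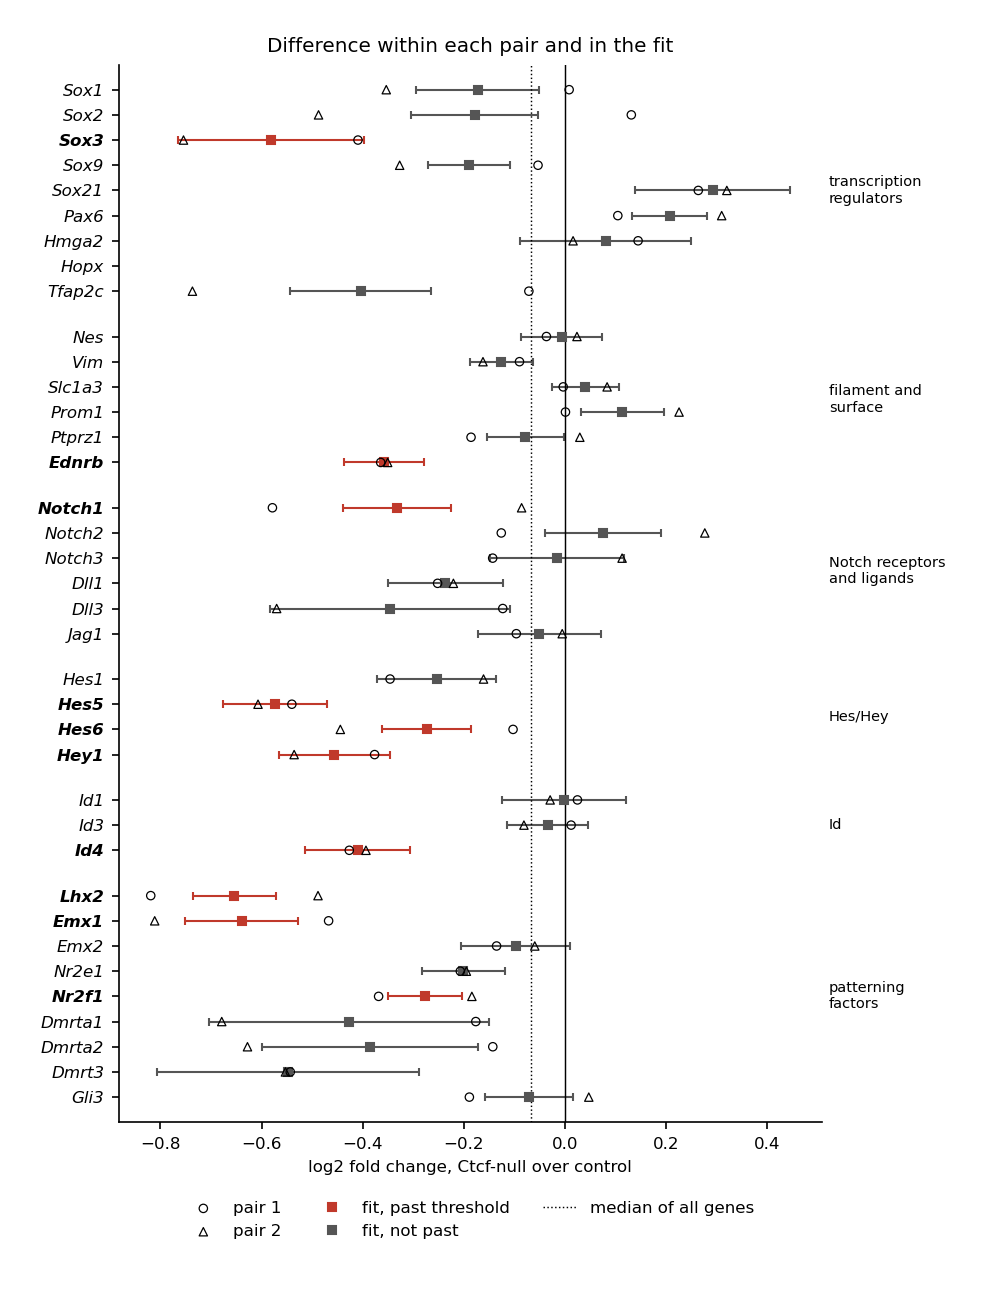
Log2 fold change of Ctcf-null over control for the 36 members tested, in pair 1 (circles), in pair 2 (triangles) and in the limma fit (squares, with 1 SE), in red for the 10 that fell. Squares of the Hes, Hey and patterning genes lie left of 0, with Lhx2 furthest at -0.65, while Nes, Slc1a3, Id1 and Id3 lie within 0.04 of it.

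Among the Hes and Hey genes 3 of 4 fell (75%, against 10.1% of all genes), with a median of -0.36. All 4 were lower in both pairs, against 42.9% of all genes. Hes5, a basic helix-loop-helix repressor and main Notch effector in radial glia, was at 88.39 and 1756 normalized counts in Ctcf-null libraries 1 and 2, against 128.97 and 2674 in controls 1 and 2. The log2 fold changes of the pairs lay close together, at -0.54 and -0.61, and the fit gave -0.57 (SE 0.10, limma adjusted p = 6.7e-04). The antisense Gm20421, which shares 31.8% of its exon bases, had between 0 and 1.25 normalized counts. Hey1, a related repressor, was at 125 and 934 in Ctcf-null libraries, against 163 and 1355 in controls, a log2 fold change of -0.46 (SE 0.11, limma adjusted p = 0.0080). Hes1, the other main Notch effector, was at 253 and 338 in Ctcf-null libraries, against 322 and 378 in controls. Both pairs had it lower, but its log2 fold change of -0.25 (SE 0.12) did not pass (limma adjusted p = 0.17). Hes6, which counteracts Hes1 and favours neuronal differentiation, was at 247 and 6337 in Ctcf-null libraries, against 265 and 8622 in controls. Its fall of 0.27 on the log2 scale (SE 0.09, limma adjusted p = 0.044) came with unequal pairs, at -0.10 and -0.44, and the call was lost in 5 of the 9 alternatives with the block.

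The sequence before the transcription start is shown for Hes5, the Notch effector that fell most, and for Lhx2 and Id4, because these were the members that fell and held the letters TGGGAA, the core bound by RBPJ. Capitals mark TGGGAA on either strand (TTCCCA on the reverse) and, in Id4, the core pattern of CTCF, which is CC, any 3 bases, AG, any 2 bases and GGC, searched on both strands. The marked motifs do not overlap. Each run is the 250 bases before a RefSeq start in GRCm38.p6, plus strand, at chr4:154960673-154960922 for Hes5, chr2:38339031-38339280 for Lhx2 and chr13:48260866-48261115 for Id4.
Hes5: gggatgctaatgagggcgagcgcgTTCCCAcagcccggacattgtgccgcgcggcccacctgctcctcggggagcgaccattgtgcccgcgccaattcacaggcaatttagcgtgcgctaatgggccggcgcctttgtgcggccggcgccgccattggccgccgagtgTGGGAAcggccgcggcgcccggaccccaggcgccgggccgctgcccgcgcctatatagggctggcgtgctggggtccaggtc
Lhx2: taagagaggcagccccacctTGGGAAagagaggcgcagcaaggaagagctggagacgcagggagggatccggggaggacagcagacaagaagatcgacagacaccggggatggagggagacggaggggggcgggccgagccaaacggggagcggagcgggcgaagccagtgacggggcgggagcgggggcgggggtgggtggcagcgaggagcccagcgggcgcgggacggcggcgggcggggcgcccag
Id4: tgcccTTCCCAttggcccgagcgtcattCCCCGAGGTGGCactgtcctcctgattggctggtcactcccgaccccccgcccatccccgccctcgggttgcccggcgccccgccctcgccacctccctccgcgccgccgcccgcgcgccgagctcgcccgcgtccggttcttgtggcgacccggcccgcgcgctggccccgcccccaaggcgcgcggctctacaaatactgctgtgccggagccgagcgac

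In the Hes5 window TGGGAA began 82 bases before the start and its reverse 226 bases before. Of 31 members with a RefSeq window, 6 (19.4%) held TGGGAA, against 21.5% of all 27025 windows of the same length, and Hes5 was the only member with 2 matches, a number reached by 2.85% of all windows. The other members with a match were Emx2, Nr2e1 and Prom1. Of the 8 members that fell and had a window, 3 held the letters. The CTCF pattern was in 3 of 31 members (9.68%), namely Id4, Jag1 and Sox2, against 7.08% of all windows. A match of letters is a description and does not show that a protein binds there.

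Of the Notch receptors and ligands 1 of 6 fell and 0 rose (16.7%), with a median of -0.14. Of all genes 10.1% fell and 13.7% passed in either direction. Whether this group differs from the Hes and Hey genes was not tested. Notch1 was at 909 and 433 normalized counts in Ctcf-null libraries 1 and 2, against 1357 and 459 in controls 1 and 2. The log2 fold change was -0.58 in pair 1 and -0.09 in pair 2, and -0.33 in the fit (SE 0.11, limma adjusted p = 0.046). Pair 1 thus carried most of that fall, and the call was lost in 7 of the 9 alternatives with the block. Notch2 was at 422 and 477 in Ctcf-null libraries, against 461 and 394 in controls, and Notch3, which vessel wall cells also express, at 192 and 286 against 212 and 264. Both receptors went in opposite directions in the pairs, and the sign of Notch3 turned with TMM and upper-quartile factors. The ligand Dll1 was at 148 and 672 in Ctcf-null libraries, against 177 and 783 in controls, with pair values of -0.25 and -0.22 and a fit value of -0.24 (SE 0.11) that did not pass (limma adjusted p = 0.19). An antisense transcript, A930024N18Rik, shares 20.6% of its exon bases and had 13.3 to 35.2 normalized counts per library. Dll3, a divergent Delta protein that restrains Notch signalling within the cell, was at 26.87 and 81.4 in Ctcf-null libraries, against 29.35 and 121.33 in controls. Its log2 fold change of -0.35 was the largest in size of this group, with an SE of 0.24 (limma adjusted p = 0.38). The ligand gene Jag1 was at 311 and 243 in Ctcf-null libraries, against 333 and 244 in controls, with a 95% interval of -0.31 to 0.20 for its log2 fold change.

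Of the transcription regulators of apical progenitors, 1 of 8 tested fell and 0 rose (12.5%), where 10.1% of all genes fell and 13.7% passed in either direction. Sox3, an X-linked HMG box gene of the group that keeps progenitors undifferentiated, was at 58.69 and 109.34 normalized counts in Ctcf-null libraries 1 and 2, against 78.27 and 185.12 in controls 1 and 2. The log2 fold change was -0.58 (SE 0.18, limma adjusted p = 0.041), and the call was lost in 5 of the 9 alternatives with the block, edgeR among them (adjusted p = 0.053). Its relatives Sox1 and Sox2 were lower only in pair 2. Sox2 was at 276 and 661 in Ctcf-null libraries, against 252 and 927 in controls, and Sox1 at 280 and 362 against 278 and 463. Their log2 fold changes were -0.18 and -0.17, with limma adjusted p of 0.39 each. Sox9, an HMG box gene of radial glia and later glia, was at 981 and 3127 in Ctcf-null libraries, against 1018 and 3922 in controls (log2 fold change -0.19, limma adjusted p = 0.13).

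Pax6, the paired box factor of dorsal progenitors, and Sox21, a repressor of the Sox family, stood above their controls in both pairs. Pax6 was at 2388 and 3165 normalized counts in Ctcf-null libraries, against 2221 and 2553 in controls, a log2 fold change of 0.21 (SE 0.07) that did not pass in limma (adjusted p = 0.071). In edgeR with the block it passed (0.26, adjusted p = 0.020), and over the 9 alternatives with the block its adjusted p ran between 0.014 and 0.38. Sox21 was at 129 and 213 in Ctcf-null libraries, against 108 and 170 in controls (log2 fold change 0.29, SE 0.15, limma adjusted p = 0.23), and 18.8% of its exon bases are shared with the antisense Gm4675. Tfap2c, which promotes the step to intermediate progenitors, was at 98.99 and 769 in Ctcf-null libraries, against 104.06 and 1282 in controls. Its pair values were far apart, at -0.07 and -0.74, and it passed in edgeR with the block (adjusted p = 0.018) but not in limma (-0.40, SE 0.14, adjusted p = 0.060). Hmga2, a chromatin protein of early progenitors, lay between 107 and 123 normalized counts in all libraries. Hopx, a homeodomain protein that does not bind DNA itself, had 3 and 7 reads in Ctcf-null libraries, against 9 and 12 reads in controls, and was removed by the filter on low counts.

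Filament, transporter and surface genes had a median log2 fold change of -0.04, which turned to 0.07 with upper-quartile factors. Nes, the intermediate filament gene whose regulatory sequences drive the Cre, was at 878 and 1854 normalized counts in Ctcf-null libraries 1 and 2, against 900 and 1824 in controls 1 and 2, and the 95% interval of its log2 fold change was -0.17 to 0.16. Slc1a3, the glutamate transporter of radial glia, was at 6065 and 3269 in Ctcf-null libraries, against 6079 and 3086 in controls, with an interval of -0.10 to 0.18. The sign of the Nes value turned with TMM and upper-quartile factors, and neither gene passed. Vim, a second filament gene, was at 2707 and 28620 in Ctcf-null libraries, against 2881 and 32024 in controls (log2 fold change -0.13, limma adjusted p = 0.20). Prom1, a glycoprotein of the apical membrane, was at 1631 and 1319 in Ctcf-null libraries, against 1629 and 1128 in controls, and Ptprz1, a receptor tyrosine phosphatase, at 2740 and 1685 against 3117 and 1651. Neither passed. Ednrb, an endothelin receptor, was the 1 gene of these 6 that fell (16.7%, against 10.1% of all genes). It was at 1441 and 921 in Ctcf-null libraries, against 1855 and 1174 in controls. Its pairs gave almost the same value, -0.36 and -0.35, and the fit -0.36 (SE 0.08, limma adjusted p = 0.0046). The call was lost with upper-quartile factors (adjusted p = 0.061) and in DESeq2 (adjusted p = 0.15).

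The Id genes encode helix-loop-helix proteins that lack a DNA-binding region and sequester proneural factors. Id4 was at 275 and 541 normalized counts in Ctcf-null libraries 1 and 2, against 370 and 710 in controls 1 and 2. It fell by 0.41 on the log2 scale (SE 0.10, limma adjusted p = 0.012), with pair values of -0.43 and -0.39. Id1 was at 67.88 and 1107 in Ctcf-null libraries, against 66.71 and 1129 in controls, and Id3 at 471 and 3843 against 467 and 4065. Their log2 fold changes were -0.00 (95% interval -0.26 to 0.25) and -0.03 (-0.20 to 0.13), and the sign of both turned with TMM and upper-quartile factors and in edgeR. Id2, which is not among the members, fell by 0.66 on the log2 scale (SE 0.06), at 9641 and 9024 in Ctcf-null libraries, against 15975 and 13504 in controls.

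The wider pathways were read from lists chosen by function, with earlier results of these data known. Over all genes tested 10.1% fell and 3.67% rose. Of 37 tested Notch pathway genes other than the members, 5 fell (13.5%) and 1 rose (median -0.15). The falls numbered 4 in edgeR with the block and 7 each with a pseudocount of 5 and with no filter on low values. They numbered 2 with TMM factors, 1 with upper-quartile factors, 1 in DESeq2 and 2 with the correction for GC content and length. Of all genes tested, 7.13% fell in edgeR with the block, 6.14% with TMM factors, 4.14% with upper-quartile factors and 2.45% in DESeq2. With the correction 7.18% fell. Over all genes the falls numbered 2300 with a pseudocount of 5 and 2406 with no filter, against 2228 in the reported fit. Dtx4, a Deltex ubiquitin ligase gene, fell by 0.63 (SE 0.10) on the log2 scale, Rfng, a Fringe glycosyltransferase gene, by 0.45 (SE 0.13), and Poglut1, which adds glucose to Notch, by 0.31 (SE 0.07). Rfng differed between pairs, at -0.02 and -0.89. Adam17, a protease that can shed Notch, rose by 0.46 (SE 0.10), at 894 and 784 normalized counts in Ctcf-null libraries, against 712 and 519 in controls. Among 15 tested genes of a list made of Id2 and genes of BMP signalling, which induces Id genes, 2 fell (13.3%) and 0 rose. They were Id2 and the receptor gene Bmpr1b, at 64.35 and 47.38 in Ctcf-null libraries, against 166.33 and 102.56 in controls (log2 fold change -1.23, SE 0.19).

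Of 30 other radial glia and apical junction genes, 9 fell (30%, against 10.1% of all genes) and 1 rose. The median was -0.08, and 5 fell with TMM factors, with upper-quartile factors and in DESeq2. Of all genes, 6.14%, 4.14% and 2.45% fell in those fits. Rises of the list numbered 1, 3 and 0 there, while 4.37%, 5.65% and 1.3% of all genes rose. Veph1, a gene expressed in the ventricular zone, was at 87.68 and 120.27 normalized counts in Ctcf-null libraries, against 242.82 and 303.94 in controls, the largest fall of that list (log2 fold change -1.39, SE 0.15). Fabp7, the fatty acid binding protein of radial glia, had a log2 fold change of -0.61 (SE 0.06), the growth factor receptor gene Fgfr3 of -0.61 (SE 0.09) and the membrane protein gene Ttyh1 of -0.55 (SE 0.09). Of 40 other forebrain patterning genes 6 fell (15%) and 4 rose (median -0.03). With upper-quartile factors 3 fell and 5 rose (4.14% and 5.65% of all genes), and in DESeq2 2 and 1 (2.45% and 1.3%). The ligand genes Wnt7a and Wnt7b, both made by cortical progenitors, fell by 1.09 (SE 0.12) and 0.60 (SE 0.10) on the log2 scale. Fgf15, a fibroblast growth factor of forebrain progenitors, rose by 0.95 (SE 0.09), at 639 and 1775 in Ctcf-null libraries, against 331 and 919 in controls, with pair values of 0.95 each. Otx2, a homeobox gene that choroid plexus also expresses, rose by 0.48 (SE 0.12).

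**Figure D3:**
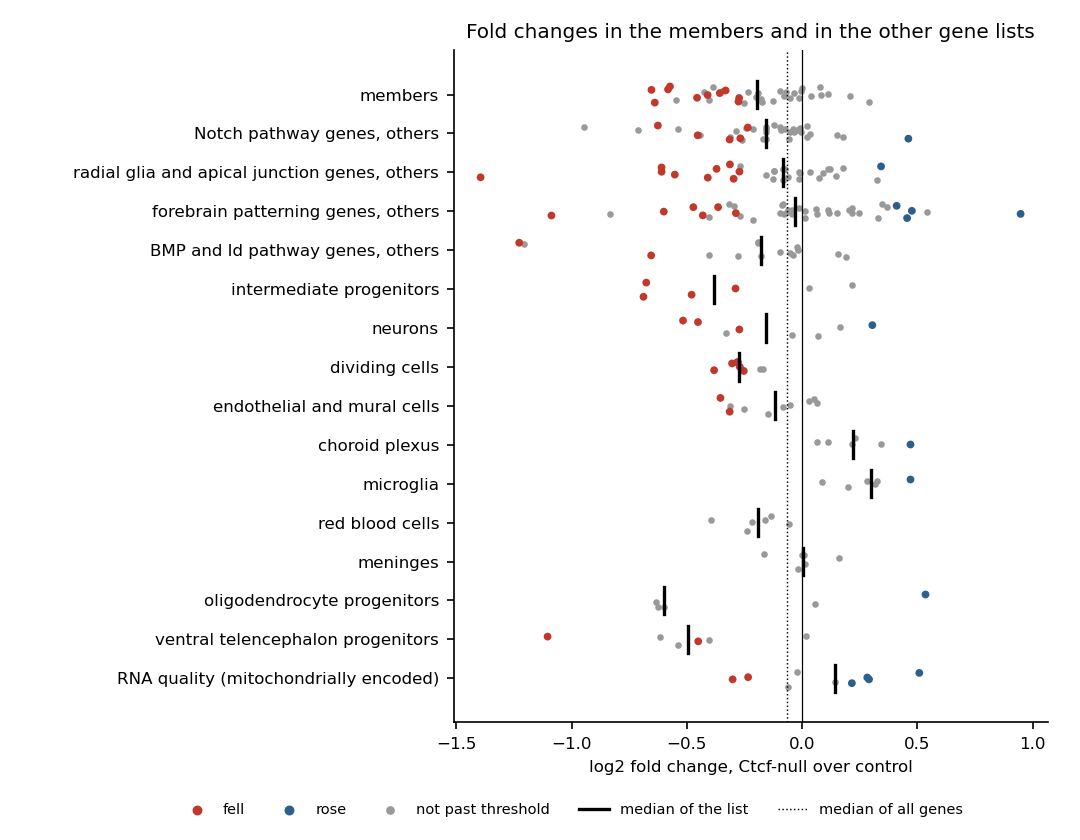
Log2 fold change of Ctcf-null over control (limma) for every tested gene of the members and of the other lists, in red for genes that fell, in blue for genes that rose and in grey for the rest, with a black bar at each list's median and a dotted line at the median of all genes (-0.07). The members' median is -0.20, and the lists of intermediate progenitors and dividing cells have medians of -0.38 and -0.27. List medians run from -0.60 for oligodendrocyte progenitors to 0.30 for microglia.

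Some markers of other cells in the tissue also moved, where 10.1% of all genes tested fell and 3.67% rose. In edgeR with the block 7.13% of all genes fell and 4.8% rose, and in DESeq2 2.45% and 1.3%. Of 8 genes of dividing cells 6 fell, against 3 in edgeR with the block, 3 with TMM factors and 1 in DESeq2. Their summed level was 25400 and 28609 normalized counts in Ctcf-null libraries, against 32407 and 33828 in controls. Among 6 intermediate progenitor markers 4 fell, with sums of 11824 and 17667 in Ctcf-null libraries, against 15008 and 23227 in controls. In edgeR with the block 3 of these markers fell and 1 rose, and in DESeq2 3 fell and 0 rose. Endothelial and mural markers, listed because vessels also express Notch3, Ednrb, Hey1, Id1 and Id3, had 2 of 10 lower past the threshold (1 in edgeR with the block and 0 in DESeq2) and sums of 3227 and 6157 in Ctcf-null libraries, against 3823 and 6904 in controls. Of 6 choroid plexus markers 1 rose (sums of 95114 and 35419 in Ctcf-null libraries, against 72605 and 24470 in controls), and of 6 microglia markers 1 rose (1326 and 2901, against 1077 and 2311). For markers of ventral progenitors 2 of 6 fell (1234 and 5098 in Ctcf-null libraries, against 1436 and 9062 in controls). Their median log2 fold change was 0.09 in pair 1 and -1.27 in pair 2, and 4 had opposite signs in the pairs. Among the meninges markers 0 of 6 passed, and among the red blood cell genes 0 of 6. All 6 red blood cell genes had opposite signs in the pairs. Their sums were 923184 and 623471 in Ctcf-null libraries, against 1341430 and 573299 in controls. Of 9 mitochondrially encoded genes 4 rose and 2 fell (1 and 0 in DESeq2). Of 8 neuron markers 3 fell and 1 rose, and of 5 markers of oligodendrocyte progenitors 1 rose and 3 were lower in both pairs (median log2 fold change -0.60), with 1 rise and 1 fall in edgeR with the block. No gene of these lists was at 0 in all libraries. The part of these shifts in the members' falls was not tested.

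The members differed between the pairs more than between genotypes, and in the same way in both genotypes. Pair 2 over pair 1, the log2 difference lay between -1.07 (Notch1) and 4.68 (Hes6) in Ctcf-null libraries and between -1.56 and 5.02, for the same genes, in controls. Among the members, the shorter transcripts tended to be higher in pair 2. Across the 36 tested members, which share their libraries and are not independent replicates, the difference correlated with the log10 length of the longest annotated transcript at r = -0.75 (rho = -0.75) in Ctcf-null libraries and r = -0.76 (rho = -0.75) in controls. With GC content r was 0.46 (rho = 0.47) and 0.45 (rho = 0.48). Over all genes tested, r with length was 0.03 and 0.02, and r with GC content 0.38 and 0.37. The fold change between genotypes correlated with GC content at r = -0.41 (rho = -0.37) and with length at r = 0.40 (rho = 0.45) over the members, and at r = -0.13 (rho = -0.15) and r = 0.09 (rho = 0.15) over all genes. After each library's trend on GC content and length was subtracted, 6 members fell and 0 rose, where 7.18% of all genes fell and 2.51% rose (9.69% in all). They were Lhx2, Emx1, Hes5, Hey1, Id4 and Ednrb, with limma adjusted p of 0.0028 to 0.024. The trend was fitted over 22020 of the genes tested, so it need not remove the members' own relation to length.

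**Figure D4:**
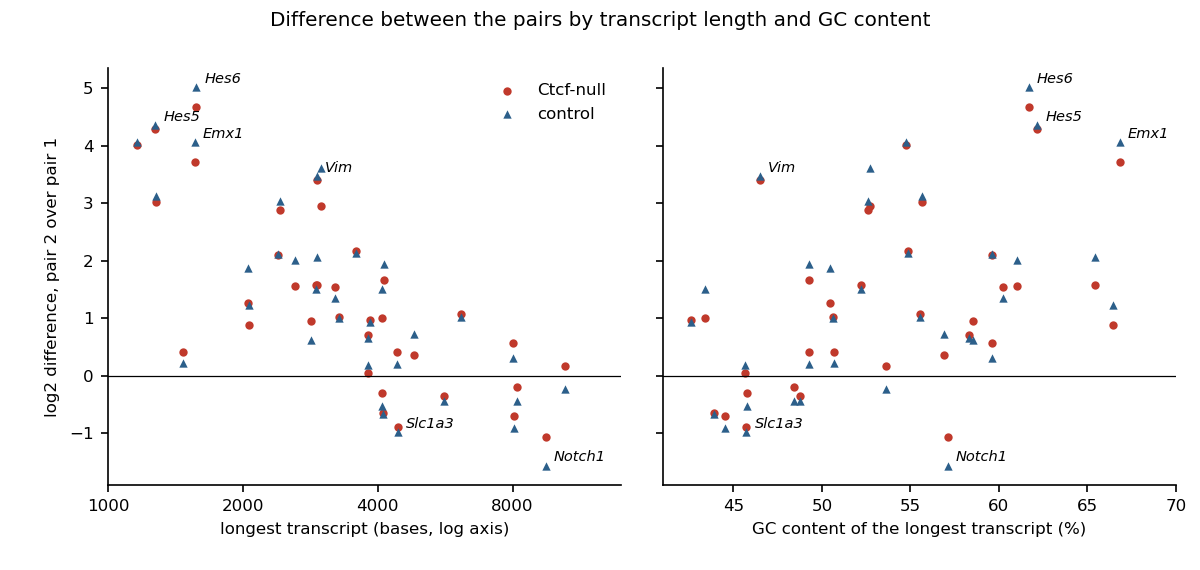
Log2 difference of pair 2 over pair 1 for the 36 members tested, in Ctcf-null libraries (red circles) and controls (blue triangles), against the length of the longest transcript (left, log axis) and its GC content (right). Hes6 and Hes5, with short and GC-rich transcripts, are highest, and Notch1, with a transcript of 9488 bases, is lowest.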

How the data were processed

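RNA-seq of 2 Ctcf-null and 2 control telencephalon libraries was used. STAR 2.5.3, DESeq2 and the build mm10 are named, without roles, per the submitters' processing notes. The gene counter, annotation release and strand setting were not given in the sources used here. The authors deposited normalized read counts per gene and library, a signal scaled by library and not divided by length, and log2 fold changes per pair, which the authors' deposited table gives and which are not used here. Values were whole multiples of 1 step per library (0.707 and 1.21 in Ctcf-null, 0.889 and 1.25 in controls), which returned whole reads for 100% of nonzero values within 0.005 on the deposited value.

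Genes passing filterByExpr in edgeR 4.0.16 (22158) were fitted in limma 3.58.1 (R 4.3.3) on log2(value + 1), with a mean-variance trend, pair as a block and genotype as the tested term. That scale understates changes of low genes. The block leaves 1 residual degree of freedom beside 18.1 prior degrees of freedom, so p-values rest on a spread shared across genes and reflect only how far these libraries differ, a spread that may be technical. Tests were two-sided. Pairs follow the submitters' design text, which does not say what a pair shares, and every call rests on this block. As a check, the 2 libraries of a pair deviated together from their genotypes' means (r = 0.92). A sample left out of a pair leaves no residual degree of freedom with the block, so single libraries were left out in fits without it. Alternatives were edgeR's quasi-likelihood test and DESeq2 1.42.0 on recovered reads, TMM and upper-quartile scaling, pseudocounts of 0.5 and 5, other filters, no block, and, added after the data were seen, a correction for GC content and length (natural splines with 5 degrees of freedom each). The fits were also run on simulated counts with known changes, drawn with the pair difference and edgeR's modelled spread. That run cannot show whether the shared spread holds for these libraries.

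The members and lists were chosen with earlier results of these data known. Every member is accounted for. Values per library are given for members past the threshold in limma or in edgeR with the block and for the largest change of each role group, and up to 4 genes of each other list are named by size of change. Overlaps, transcript length (longest transcript) and GC content came from GENCODE M21, which holds 31 of 37 members in the deposited ID version and all of them without it. Promoter windows came from RefSeq GRCm38.p6.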

Additional observations from a re-analysis of the deposited data

How the results depend on the processing

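With the block, no member turned its direction past the threshold under any alternative. Without it (limma or edgeR), 0 genes rose, 0 fell and 0 members passed. Leaving out 1 library at a time, without the block, gave 0 to 0 higher and 0 to 2 lower genes and 0 to 0 members. Log2 fold changes then reached a low of -1.20 for Sox3, -1.11 for Notch1, -2.76 for Hes5, -2.78 for Hes6, -1.98 for Hey1, -0.90 for Id4, -2.67 for Emx1 and -1.04 for Nr2f1. Lhx2 ran between -1.13 and -0.17 and Ednrb between -0.69 and -0.03, with no change of sign. The sign of the others turned without control 2 to 0.034 for Sox3, 1.61 for Hes5, 2.24 for Hes6, 1.07 for Hey1, 0.060 for Id4, 1.39 for Emx1 and 0.40 for Nr2f1. It turned without Ctcf-null 1 to 1.57 for Hes5, 2.07 for Hes6, 0.99 for Hey1, 0.076 for Id4, 1.22 for Emx1 and 0.49 for Nr2f1. For Notch1 it turned to 0.20 without Ctcf-null 2 and to 0.45 without control 1. By construction these fits leave 1 library without its pair. Called genes, higher and lower, numbered 813 and 2228 in the reported fit, 289 and 543 in DESeq2, 968 and 1360 with TMM factors, and 1251 and 917 with upper-quartile factors. Members that fell numbered 10 in the reported fit, 3 in DESeq2, 6 with TMM factors, 4 with upper-quartile factors and 6 with the GC and length correction. Members that rose numbered 1 (Pax6) in edgeR with the block and with TMM and upper-quartile factors, against 0. The cause of these differences was not tested. The block changed the call of every member that fell. Read numbers were low for the Dmrt genes, Dll3 and Hopx.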

Other observations

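The order of the members by level per kilobase of the longest transcript changed between the pairs and little between genotypes. In pair 1 Slc1a3 was first, at 1367 normalized counts per kilobase in the Ctcf-null library and 1371 in the control. In pair 2 Vim was first, at 9781 per kilobase in the Ctcf-null library and 10940 in the control, and Slc1a3 was at place 10 in both. Hes6 was at place 13 in both libraries of pair 1 and at place 2 in both libraries of pair 2. These levels are normalized counts per kilobase, not fold changes.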
